A study of Bos taurus with 8 samples.

Results

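Lymphatic endothelial cells (LECs) of bovine skeletal muscle were compared between freshly digested muscle and passage 0 (P0) culture. The cells were those that the deposited cell table labels LECs. There were 249 of them among 36129 cells of the series, with 81 of 4395 cells in muscle (Timepoint 1) and 168 of 9591 cells at P0 (Timepoint 2). Cells came from the semitendinosus muscle of Belgian Blue cattle, a double-muscled breed, and each cell had been assigned to its donor animal by genotype. The muscle group was sequenced directly after enzymatic digestion, and the P0 group after 72 h of growth in serum-free growth medium on fibronectin, unsorted and unpassaged. All animals of a timepoint were pooled for sequencing with 10x Genomics 3′ chemistry, so that timepoint and library effects cannot be told apart. The labels list 2 runs for P0, and the 1 matrix used is labelled run 1. It was treated as 1 library, and the labels do not say whether it also holds run 2. Raw counts of unique molecular identifiers (UMIs, 1 per captured transcript) were summed per animal and timepoint for animals with at least 10 LECs. This left 4 animals in muscle (animals 4, 7, 8 and 10: 3 calves and 1 adult, 2 females and 2 males) with 11 to 13 LECs each, and 7 animals at P0 (animals 1, 2, 4, 6, 7, 8 and 9: 3 calves and 4 adults, 5 females and 2 males) with 10 to 33 LECs each. Animals 4, 7 and 8 were in both groups.

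LECs line the lymphatic vessels, which return fluid and migrating leukocytes from tissue to blood. The transcription factor PROX1 sets and maintains their identity, and the receptor FLT4 (VEGFR3) carries the growth signal of VEGFC. LECs secrete the chemokine CCL21, which draws dendritic cells and T cells into the vessel, and they carry LYVE1, a receptor for hyaluronan. In the muscle dissociates studied here they sit beside a larger population of vascular endothelial cells (VECs), fibro-adipogenic progenitors (FAPs), which are the connective tissue progenitors of muscle, and satellite cells, the muscle stem cells.

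The summed LEC libraries held 56121 to 67317 UMIs per animal in muscle and 80694 to 394876 at P0. At P0 the median LEC held 9309 ± 2805 UMIs (SD, n = 7 animals) and 2684 ± 378 genes, against 4904 ± 679 UMIs and 1819 ± 173 genes in muscle (n = 4). Mitochondrial transcripts made up 1.97% ± 0.326 of a cell's UMIs at P0 and 3.46% ± 0.733 in muscle. Among these animals with at least 10 LECs, each of the 3 measures separated the timepoints completely. The exact 2-sided permutation test over animals gave p = 0.00606 and adjusted p = 0.00606, the smallest this design allows. Animals with fewer LECs did not all keep to this for depth. The median LEC held 7439 UMIs in muscle animal 1 (7 LECs) and 5164 UMIs in P0 animal 10 (5 LECs). LECs were 1.94% ± 0.823 of the cells of an animal in muscle (n = 10) and 1.90% ± 1.18 at P0 (n = 9). As a share of endothelial cells (LECs and VECs together) they made up 7.47% ± 3.71 in muscle and 18.1% ± 8.46 at P0, and the P0 share was the higher one in 8 of the 9 animals seen at both timepoints. No LEC barcode was shared between the timepoints (7 barcodes were shared over all cells).

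The labels were checked against lymphatic markers. Transcripts of at least 2 of 7 lymphatic genes (PROX1, LYVE1, FLT4, CCL21, MMRN1, RELN and STAB1) were present in 95.1% of muscle LECs and 86.9% of P0 LECs, against 0.772% and 1.81% of VECs and 0.244% and 0.591% of FAPs. The median LEC held 6 of the 7 in muscle and 3 at P0. To compare cells of unequal depth, each cell was thinned to 2000 UMIs, which left out 2 of the 81 muscle LECs and none at P0. MMRN1, a secreted multimerin stored by LECs, was then found in 91.1% of muscle and 78.6% of P0 LECs (95.1% and 94.0% without thinning). PROX1 was found in 32.9% and 8.33% (58.0% and 36.9% without thinning), against 0.241% and 0.121% of thinned VECs. The median UMI count was 4866 per LEC and 2778.5 per VEC in muscle, and 9436 and 12856 at P0. The labels were made by the study from the same transcripts, so these values describe the labelled cells and are no independent test of them.

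Of 3034 genes that passed the filter on low counts, 447 were higher and 451 lower at P0 at an adjusted p below 0.05 and a change of more than 1 on the log2 scale (edgeR quasi-likelihood test, Benjamini-Hochberg over all genes tested). These are 29.6% of the genes tested, 14.7% higher and 14.9% lower. The last 2 shares are the background for every list count of the LEC change below. The median change over all genes was 0.06. In 908 genes (29.9%) the animals of the timepoints did not overlap, and 687 genes met both criteria. The test above had no donor term, so the sums of a shared animal were treated as independent. With the donor animal as a replicate block, which pairs animals 4, 7 and 8, 805 genes were called (385 higher and 420 lower). Of the 898 genes, 194 lost their call. An animal seen at 1 timepoint adds nothing to the change fitted with the block. Block values of the LEC change thus rest on animals 4, 7 and 8. In those 3 animals 850 of the 898 genes moved in the called direction in every animal. The same animals were in the fit that made the calls, so this count is no independent support for them. Levels are given as counts per 1000000 UMIs (CPM), scaled between libraries by the trimmed mean of M values (TMM), for muscle animals 4, 7, 8 and 10 in that order and as the lowest, median and highest of the 7 P0 animals. A called gene that loses the call, or whose fold change moves by more than 1.5 times, when 1 animal is left out is given with its value without that animal. Fits without P0 animal 1, 2, 4, 7, 8 or 9 tested fewer genes, 2112 to 2360, so short lists lose members there. The fit without the filter moved the median change over all genes to 0.39 and called 1105 of 12602 genes higher. List counts without the filter are to be read beside that shift.

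Genes of lymphatic identity were mostly lower at P0. Of 27 listed genes 19 were tested, 14 were lower and 1 was higher, with a median change of -2.48 on the log2 scale. PROX1 was at 274, 254, 175 and 261 CPM in the muscle animals and at 35.3, 40.4 and 68.6 CPM (lowest, median, highest) at P0. All P0 animals lay below all muscle animals, and the mean fell from 241 ± 44.8 to 47.7 ± 13.9 CPM (log2 fold change -2.26, SE 0.28, adjusted p = 1.46e-07, edgeR). The fitted falls of CCL21, LYVE1 and PTN were larger. CCL21 was at 3053, 6106, 9319 and 4608 CPM in muscle and at 16.6, 89.2 and 658 CPM at P0 (log2 fold change -5.16, SE 0.67). LYVE1 was at 1481, 3045, 3180 and 1824 CPM in muscle and at 16.6, 95.6 and 306 CPM at P0 (-4.58, SE 0.55). PTN, the growth factor pleiotrophin, fell furthest in the list, from 2322, 4393, 3896 and 3550 CPM to 35.5, 47.0 and 167 CPM (-5.82, SE 0.36). None of these groups overlapped. RELN, the extracellular glycoprotein reelin, fell by 3.51 (SE 0.28), the scavenger receptor STAB1 by 3.54 (SE 0.33), PKHD1L1 by 5.14 (SE 0.36) and the nuclear receptor NR2F1 by 2.73 (SE 0.22) on the log2 scale.

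Other lymphatic genes moved less. MMRN1 was at 2230, 5122, 5407 and 3582 CPM in muscle and still at 883, 1248 and 1657 CPM at P0 (log2 fold change -1.70, SE 0.25, adjusted p = 0.000294). FLT4 was at 293, 381, 318 and 342 CPM in muscle and at 112, 137 and 265 CPM at P0 (-1.09, SE 0.24, adjusted p = 0.000526), and its change was -0.99 without muscle animal 7, just under the fold limit. The change of NR2F2 (COUP-TFII), a partner of PROX1, was -0.94 (SE 0.21), and those of SOX18, the factor that induces PROX1 in the embryo, and HHEX were -0.26 (SE 0.22) and 0.18 (SE 0.49, and 0.96 without muscle animal 10). None of the 3 was called, although NR2F2 passed both limits without muscle animal 4 or 10 and without P0 animal 1, 7, 8 or 9. PDPN, the membrane mucin podoplanin, went the other way. It was at 128, 206, 207 and 326 CPM in muscle and at 326, 395 and 717 CPM at P0 (1.04, SE 0.25, adjusted p = 0.00213). This call rested on the fold limit, with changes of 0.89 without muscle animal 4 and 0.98, 0.93 and 0.93 without P0 animals 1, 6 and 8.

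**Figure D1:**
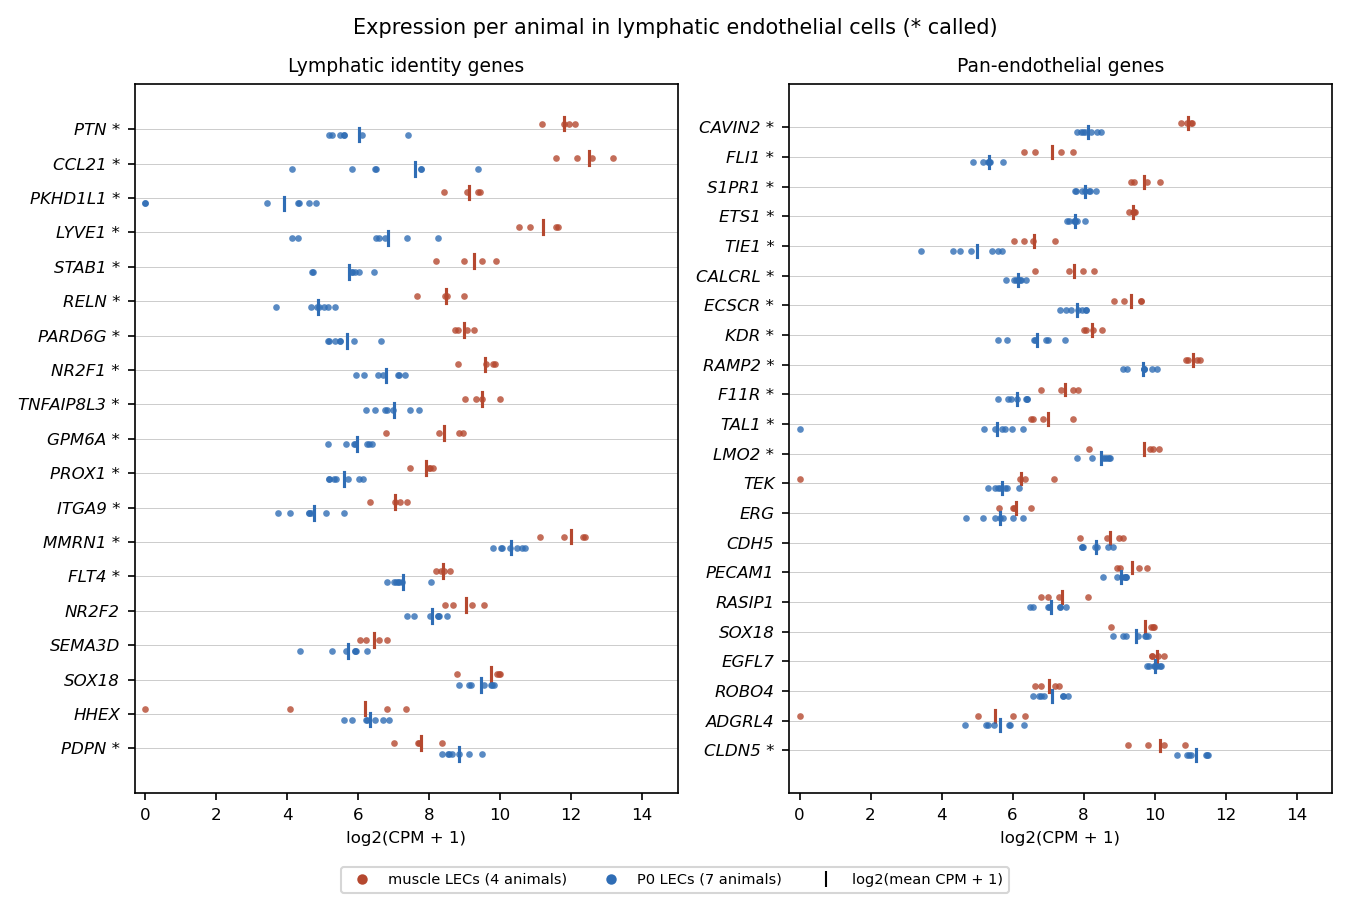
Expression of the tested lymphatic identity genes (left) and pan-endothelial genes (right) in LECs, as log2(CPM + 1). Each point is 1 animal (muscle in red, P0 in blue), the bar is the log2 of the group mean plus 1, and an asterisk marks a gene called at an adjusted p below 0.05 and a log2 change above 1. PROX1, CCL21, LYVE1 and PTN do not overlap between the groups, while PECAM1, CDH5 and SOX18 do.

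Of 22 pan-endothelial genes tested, 12 were lower and 1 was higher (median -1.22). PECAM1 (CD31), the adhesion molecule of endothelial junctions, was at 877.5, 761.2, 492.97 and 521.1 CPM in muscle and at 376, 573 and 588 CPM at P0 (-0.30, SE 0.17, adjusted p = 0.163). CDH5, the endothelial cadherin, had a change of -0.39 (SE 0.22, adjusted p = 0.163), the secreted regulator EGFL7 of -0.05 (SE 0.13) and the transcription factor ERG of -0.42 (SE 0.42), none of them called. In cells thinned to 2000 UMIs, PECAM1 was found in 64.6% of muscle LECs and 64.3% of P0 LECs. CAVIN2, which shapes caveolae, was at 1718, 2078, 1940 and 2133 CPM in muscle and at 223, 260 and 359 CPM at P0 (-2.78, SE 0.14, adjusted p = 5.48e-15), the largest fall of this list. The transcription factors ETS1 and FLI1 fell by 1.64 (SE 0.15) and 1.75 (SE 0.34), and S1PR1, the sphingosine-1-phosphate receptor, by 1.67 (SE 0.17) on the log2 scale. CLDN5, the main endothelial tight junction claudin, was the member called higher. It was at 1865, 904, 604 and 1221 CPM in muscle and at 1575, 2091 and 2886 CPM at P0, with overlapping groups (1.02, SE 0.30, adjusted p = 0.0186). The CLDN5 call was lost without muscle animal 7 or 8 (0.96 and 0.85) and without P0 animal 1, 7 or 9 (0.91, 0.92 and 0.92).

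Receptors for endothelial growth factors were lower or overlapped. In the VEGF and angiopoietin list 5 of 8 tested genes were lower and none higher (median -1.25), though 2 genes were called higher without muscle animal 4 and 1 without muscle animal 7, 8 or 10. KDR (VEGFR2) was at 256, 270, 366 and 309 CPM in muscle and at 47.0, 98.6 and 176 CPM at P0 (-1.47, SE 0.28, adjusted p = 0.000151). TIE1 fell by 1.62 (SE 0.45) and its partner TEK had a change of -0.51 (SE 0.44) that was not called and was 0.08 without muscle animal 7. CALCRL and RAMP2, which together form the adrenomedullin receptor needed for lymphatic growth, fell by 1.58 (SE 0.28) and 1.40 (SE 0.15) on the log2 scale. The ligands VEGFC and VEGFD were below the filter, and ANGPT2, picked out after its values were seen, was at 750, 174, 366 and 97.7 CPM in muscle and at 141, 218 and 503 CPM at P0 with no call (-0.37, SE 0.55), though it was called with the block (-1.04, adjusted p = 0.0125).

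Of 8 tested genes that respond to lymph flow or mark valves, 6 were lower and none higher (median -1.75), and 2 or 3 of the 4 members still tested were lower without P0 animals 1, 4, 7, 8 or 9. KLF4, a transcription factor induced by shear stress, was at 567, 761, 652 and 1221 CPM in muscle and at 44.6, 54.5 and 70.5 CPM at P0. The groups lay far apart (-3.86, SE 0.21, adjusted p = 2.09e-14). ITGA9, the integrin subunit of lymphatic valves, fell by 2.25 (SE 0.41), and the gap junction gene GJA1 by 1.85 (SE 0.37) with overlapping groups. CLDN11 was at 750, 63.4, 31.8 and 48.8 CPM in muscle and at 11.8, 23.5 and 66.3 CPM at P0. Its call (-2.56, adjusted p = 0.0473) rested on muscle animal 4, without which the change was -0.42 (adjusted p = 0.653), and it was also lost without P0 animal 6 (-2.53, adjusted p = 0.0682).

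In the BMP and TGF-beta pathway, whose receptors act in vessel maturation, 8 of 14 tested genes were lower and 1 higher (median -1.40). LTBP4, which holds latent TGF-beta in the matrix, was at 311, 412, 302 and 537 CPM in muscle and at 0, 0 and 4.90 CPM at P0, where 2 counts were found over all 7 animals. The ratio of P0 to muscle was 0.00289, with a 95% interval from counting error of 0.000345 to 0.0107. The receptor TGFBR2 fell from 658, 634, 652 and 423 CPM to 71.8, 98.6 and 165 CPM (-2.47, SE 0.21), and ID2, an inhibitor of basic helix-loop-helix factors, by 1.47 (SE 0.35) with overlapping groups. Of the Notch list 1 gene passed the filter, the target HES1, which was at 585, 587, 477 and 798 CPM in muscle and at 15.9, 29.4 and 59.2 CPM at P0 (-4.14, SE 0.25).

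**Figure D2:**
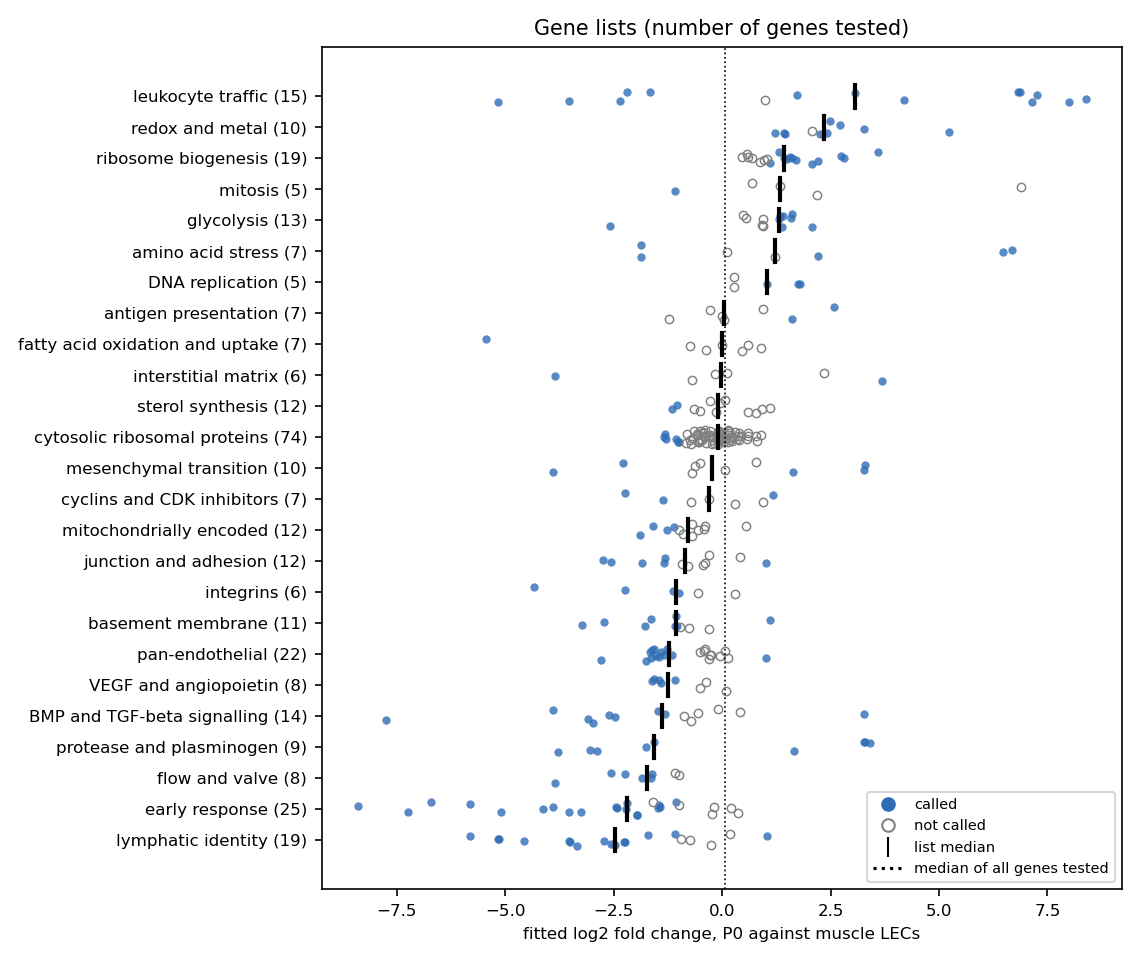
Fitted log2 fold changes, P0 against muscle LECs, of the tested members of each gene list with at least 5 tested genes. Each point is 1 gene (filled where called), the number of tested genes is in brackets, the thick bar is the list median and the dotted line the median of all 3034 genes (0.06). The list medians run from 3.05 for leukocyte traffic to -2.48 for lymphatic identity.

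Genes of leukocyte traffic gave calls in both directions. Of 15 tested, 9 were higher and 5 lower (median 3.05, or 2.89 with genes at 0 counts set to their bound), and without the filter 10 of 35 were higher and 9 lower. The 5 lower genes included CCL21, STAB1 and S1PR1. The lower count was 3 without P0 animals 1, 4, 7, 8 or 9, where 11 to 13 members were tested. The 9 higher genes were mostly inflammatory chemokines and cytokines. CXCL5, a neutrophil chemoattractant, was at 18.3, 0, 0 and 16.3 CPM in muscle and at 1621, 2948 and 4372 CPM at P0. Its mean was 3005 ± 931 CPM at P0, and with 2 counts in muscle the ratio was 330 (95% interval 91.3 to 2727, counting error only). CXCL8 (interleukin-8) was at 0, 0, 0 and 16.3 CPM in muscle and at 142, 359 and 1073 CPM at P0. This gave a ratio of 127 (22.7 to 5023) from 1 count in muscle. The fitted CXCL8 change was 6.83 (SE 1.55, adjusted p = 0.00592) and 9.74 without muscle animal 10, which held that count. IL6 had no count in muscle and was at 118, 129 and 277 CPM at P0, at least 14.8-fold higher against a floor of 3 counts over the muscle group.

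Further chemokine calls were less secure. CXCL2 was at 18.3, 0, 0 and 0 CPM in muscle and at 144, 358 and 1906 CPM at P0, with a ratio of 127 (22.8 to 5034) from 1 count in muscle. Its adjusted p was 0.0201 and lay between 0.0545 and 0.0906 without any 1 of muscle animals 4, 7, 8 or 10. The fitted CXCL2 change of 6.86 was 9.77 without muscle animal 4 and 6.10 without P0 animal 7. GRO1 was at 183, 47.6, 0 and 16.3 CPM in muscle and at 265, 383 and 1029 CPM at P0 (3.05, SE 0.82, adjusted p = 0.0139), and its change was 4.50 without muscle animal 4. CXCL3, picked out as the member not called, was at 969, 428, 127 and 212 CPM in muscle and at 404, 869.7 and 1499.5 CPM at P0 (0.99, SE 0.54, adjusted p = 0.178), and was called without muscle animal 4 (1.74, adjusted p = 0.0357). CXCL2, CXCL3 and GRO1 are close relatives whose 3′ reads may be shared out between them. CCL5 was at 18.3, 174, 0 and 16.3 CPM in muscle and at 221, 617 and 3573 CPM at P0 (4.20, SE 1.48, adjusted p = 0.0451). The CCL5 call was lost without any 1 of the 4 muscle animals, with changes of 3.98, 6.44, 3.82 and 3.95, and without P0 animals 4, 7 and 8 (4.19, 4.25 and 4.00), and the change was 3.57 without P0 animal 6.

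The other genes among the largest fitted rises also had few or no counts in muscle LECs. TNFRSF6B, a decoy receptor for FAS ligand, had 0 counts in muscle and was at 627, 956 and 1235 CPM at P0, at least 73.6-fold higher. HMGA1, a chromatin protein of proliferating cells, was at least 19.5-fold higher (153, 243 and 300 CPM at P0). The fatty acid binding protein FABP3 was at least 14.5-fold higher, the vitamin B6 kinase PDXK at least 9.43-fold, the growth factor CSF1 at least 8.29-fold, the chemokine CCL2 at least 7.42-fold and the retinol carrier RBP4 at least 6.91-fold, each with 0 counts in the 4 muscle animals. SOD2, the mitochondrial superoxide dismutase, was at 18.3, 0, 15.9 and 0 CPM in muscle and at 879.9, 1399.8 and 2433 CPM at P0, a ratio of 161 (44.6 to 1333). Without muscle animal 4 the fitted changes of CXCL5 and SOD2 were 8.99 and 7.93, against 8.38 and 7.33 with it. All P0 animals lay above all muscle animals in each of these genes, which the rule for naming them required.

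**Figure D3:**
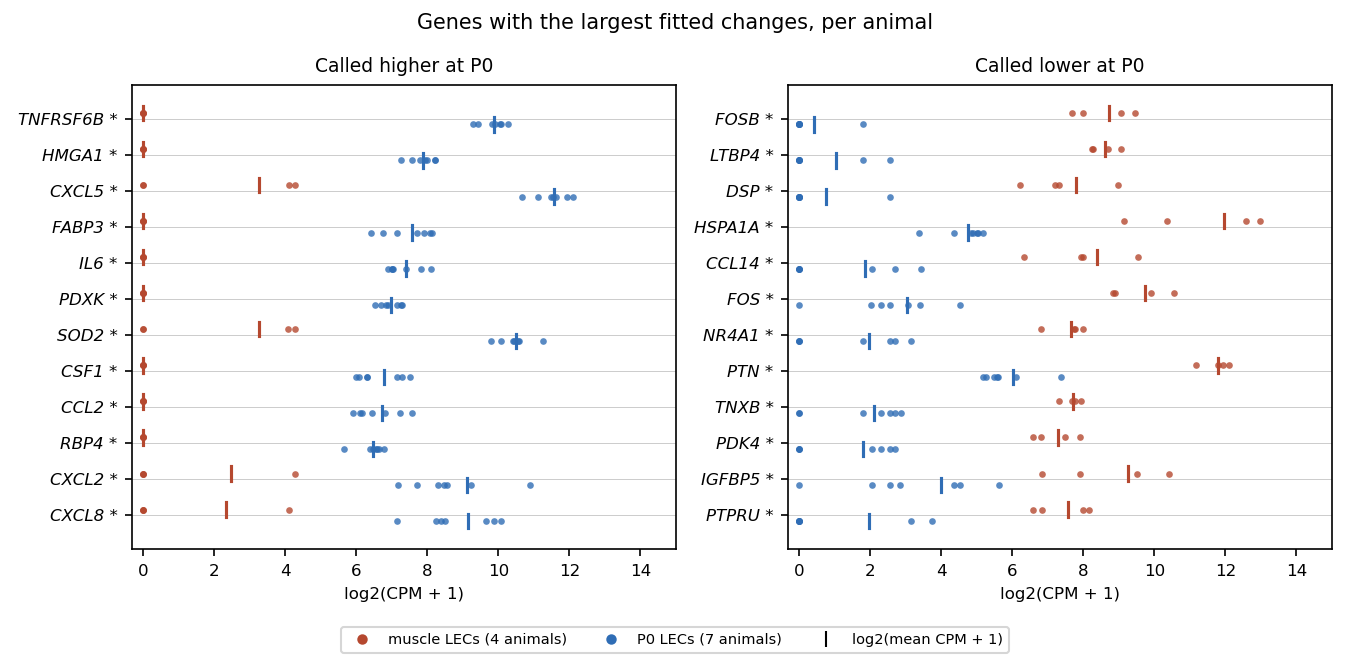
The 12 called genes with the largest fitted change in each direction in LECs among those with a mean of at least 50 CPM in the higher group and animals that did not overlap, fibre genes left out, as log2(CPM + 1) per animal (muscle in red, P0 in blue, bars for the log2 of the group mean plus 1). TNFRSF6B, HMGA1, FABP3, IL6, PDXK, CSF1, CCL2 and RBP4 are at 0 in all 4 muscle animals, and FOSB, LTBP4 and DSP are at 0 in most P0 animals.

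Transcripts of FAPs, the most numerous cells at P0 (5756 of 9591), were also found in LECs. Of 15 FAP markers 3 were tested, of which DCN was higher, GSN lower and COL3A1 not called. Without the filter 7 of the 15 were higher and 2 lower, and 2 were higher with the block, with DESeq2, without any 1 of the 4 muscle animals (6 or 7 tested) and without P0 animal 1, 2 or 4. DCN (decorin), a matrix proteoglycan made by fibroblasts, was at 54.8, 15.9, 47.7 and 0 CPM in muscle LECs and at 174, 308 and 861 CPM in P0 LECs (3.68, SE 0.95, adjusted p = 0.0115, and 3.05 with the block). GSN (gelsolin), an actin-severing protein that is also made outside FAPs, was at 384, 174, 175 and 114 CPM in muscle animals 4, 7, 8 and 10 and at a lowest, median and highest of 31.9, 66.3 and 106 CPM at P0 (-1.69, SE 0.33, adjusted p = 0.000154). COL3A1, a fibrillar collagen with 10 counts in muscle LECs, had a change of 2.35 (SE 0.88, adjusted p = 0.0561). It was called higher with the block, with DESeq2 and without P0 animal 1, 2 or 4, and it was not called without any 1 of the 4 muscle animals. A DCN transcript was present in 86.9% of P0 LECs, 89.9% of P0 VECs and 99.5% of P0 FAPs, and in 47.0%, 37.0% and 96.7% after thinning to 2000 UMIs. On the scale of CPM of all UMIs, DCN in P0 LECs was at 14.0% of its level in P0 FAPs, COL1A1 at 12.01%, COL1A2 at 12.7%, PDGFRA, the receptor that marks FAPs, at 13.3%, LUM at 16.2% and COL3A1 at 17.4%. RBP4 (13.4%), CSF1 (15.2%) and CCL2 (15.6%) lay in the same range, and in VECs these 3 were at 12.7%, 13.4% and 18.3% of the FAP level. Other risen genes stood higher relative to FAPs, among them MT2A (115%) and the 8 given here. FABP3 was at 32.9% of the FAP level in LECs, IL6 at 43.0%, CXCL5 at 43.6%, SOD2 at 72.8%, GRO1 at 121%, CXCL2 at 144%, TNFRSF6B at 197% and CXCL8 at 651%. VECs of the same library were at 27.4%, 22.4%, 10.3%, 23.8%, 20.2%, 23.0%, 426% and 141% for these 8 genes. The summed level of 15 FAP markers was 195 to 676 CPM in muscle LECs and 553 to 2104 CPM in P0 LECs, with 13 of the 15 detected at P0. The part of transcripts from other cells in the rises of RBP4, CSF1, CCL2 and DCN was not tested.

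**Figure D4:**
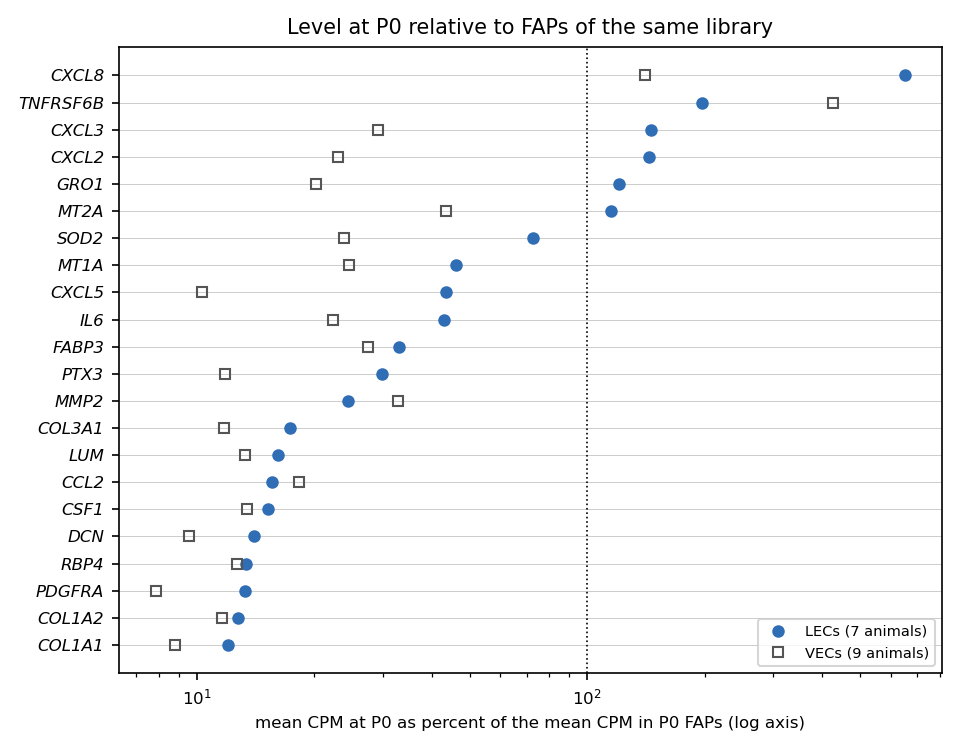
Mean level at P0 in LECs (filled circles, 7 animals) and VECs (open squares, 9 animals) as percent of the mean level in P0 FAPs, on a log axis, from CPM of all UMIs. The dotted line marks the FAP level. Collagens, DCN, PDGFRA, RBP4, CSF1 and CCL2 lie between 12.01% and 17.4% in LECs, while CXCL2, CXCL3, GRO1, MT2A, TNFRSF6B and CXCL8 exceed 100%.

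Markers of the remaining cell types were mostly low in LECs of both timepoints. No satellite cell, mural, leukocyte or red cell marker passed the filter. Summed over the list, satellite cell markers ranged from 0 to 47.6 CPM in muscle and 11.8 to 66.9 CPM at P0, mural markers from 0 to 47.6 and 24.5 to 89.2 CPM, and leukocyte markers from 54.8 to 111 and 29.7 to 121 CPM. PTPRC (CD45) was at 0 in the tested LECs of both groups, and PAX7 at 0 in those from muscle, where a count of 0 allows up to 11.8 CPM over the group (1.74 CPM at P0). Blood vascular markers summed to 460 to 1901 CPM in muscle and 201 to 332 CPM at P0, with 6 of the 22 at 0 in each group, SELE in both and FLT1 at P0 only. One of them, EMCN, passed the filter and was lower at P0 (-1.16, SE 0.22), a call lost without muscle animal 4 (-0.94). Of 7 glial markers S100B was tested and fell by 4.20 (SE 0.36) on the log2 scale, while SOX10 and NGFR were at 0 in both groups.

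Transcripts of muscle fibres were found in muscle LECs, and part of the list was at 0 at P0. ACTA1, the actin of skeletal muscle fibres, was at 256, 143, 159 and 179 CPM in muscle and at 0 in all 7 P0 animals, at least 107-fold lower. In muscle an ACTA1 transcript was present in 38.3% of LECs, 36.7% of VECs and 75.9% of FAPs, cell types that do not form fibres. TNNT1, a troponin of slow fibres, fell by 4.29 (SE 0.46). The 27 fibre genes summed to 1645 to 2020 CPM in muscle and 1105 to 1420 CPM at P0, where 17 of them were at 0. The third gene of the list that was tested, TPM3, is also expressed outside fibres and had a change of 0.38 (SE 0.13). TPM3 alone was at 1058 to 1339 CPM at P0 and so made up most of the P0 sum.

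The early response genes, which are switched on within minutes of cell stress, were mostly lower at P0. Of 25 tested, 19 were lower and none higher (median -2.18). FOS was at 475, 952, 461 and 1498 CPM in muscle and at 0, 4.90 and 22.1 CPM at P0 (-6.72, SE 0.43, adjusted p = 7.38e-09). FOSB was at 530, 206, 254 and 700 CPM in muscle, and 1 count was found over the 7 P0 animals, a ratio of 0.00136 (3.41e-05 to 0.00775). Its fitted change of -8.39 was -9.11 without P0 animal 1. JUN was at 5046, 2157, 2067 and 4494 CPM in muscle and at 161, 232 and 292 CPM at P0 (-3.91, SE 0.27). The groups did not overlap in any of these. HSPA1A, an inducible heat shock chaperone, was at 6143, 8009, 1320 and 570 CPM in muscle and at 9.33, 28.7 and 35.3 CPM at P0 (-7.25, SE 0.77), and its change was -6.62 without muscle animal 7. NR4A1 fell by 5.82 (SE 0.51) and KLF6 by 2.22 (SE 0.20). The constitutive chaperones HSPA8 and HSP90AA1, named after their values were seen, had changes of 0.37 (SE 0.14) and 0.20 (SE 0.12) and were not called.

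Other genes among the largest falls were of varied function. DSP, the desmosomal protein desmoplakin, held 55 counts in muscle and 1 at P0, a ratio of 0.0025 (6.21e-05 to 0.0145), and its fitted change of -7.49 was -6.68 without muscle animal 8. The chemokine CCL14 was at 750, 79.3, 254 and 244 CPM in muscle and at 0, 0 and 9.80 CPM at P0 (-6.77), and its change was -6.02 without muscle animal 4. PDK4, the kinase that shuts off pyruvate dehydrogenase, fell by 5.46 (SE 0.56), the matrix glycoprotein TNXB by 5.66 and the receptor phosphatase PTPRU by 5.34 on the log2 scale. IGFBP5, a binding protein of insulin-like growth factors, had a change of -5.36, which was -4.62 without muscle animal 4 and -5.99 without P0 animal 7. The change of PTPRU was -6.43 without P0 animal 1.

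Genes of metal binding and redox control rose together. Of 10 tested, 9 were higher and none lower (median 2.35). MT2A, a metallothionein, was at 914, 1522, 2831 and 1010 CPM in muscle and at 12038, 15514 and 18131 CPM at P0 (3.28, SE 0.32, adjusted p = 2.43e-05). The ferritin heavy chain FTH1 was at 3126, 3552, 3785 and 3680 CPM in muscle and at 9566, 17044 and 37374 CPM at P0 (2.43, SE 0.37), and the light chain FTL rose by 1.44 (SE 0.13). TXN (thioredoxin) was at 329, 428, 223 and 358 CPM in muscle and at 1529, 2304 and 2651 CPM at P0 (2.72, SE 0.18, adjusted p = 4.74e-12). Groups did not overlap in these 4 genes. HMOX1, the tenth gene, had a change of 2.07 (SE 0.83, adjusted p = 0.0617).

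In glycolysis 7 of 13 tested genes were higher and 1 lower (median 1.31). PKM, the last enzyme of the pathway, was at 183, 174, 95.4 and 81.4 CPM in muscle and at 442, 529 and 740 CPM at P0 (2.06, SE 0.23), and TPI1, PGAM1 and ENO1 rose by 1.60, 1.59 and 1.31. The glucose transporter SLC2A3 fell by 2.58 (SE 0.36). In ribosome biogenesis 12 of 19 were higher and none lower (median 1.44). NCL (nucleolin) was at 329, 349, 223 and 261 CPM in muscle and at 717, 778 and 1064 CPM at P0 (1.57, SE 0.18, adjusted p = 5.91e-08), FBL, the methyltransferase of ribosomal RNA, rose by 1.61 (SE 0.32) and DKC1 by 2.22 (SE 0.38). Of 74 tested genes for the ribosomal proteins themselves, 6 were lower and none higher (median -0.11). RPL26 was at -1.31 (SE 0.11) and RPL37 at -1.07 (SE 0.09), and no change went below the -1.34 of RPS15A. Without the filter none was lower and 3 were higher, and 1 was higher without muscle animal 8. The lower count was 3 with the replicate block and 3 without muscle animal 10, and the RPL37 change was then -0.95 in both. Of 12 genes encoded by the mitochondrial genome 4 were lower (median -0.80), ATP6 by 1.59 (SE 0.16) and ND5 by 1.27 (SE 0.17), beside the lower mitochondrial share given above. Of 7 fatty acid genes 1 was lower (PDK4), 2 of 9 were lower without muscle animal 10 and 1 of 9 was higher without muscle animal 4. Of 12 sterol genes 2 were lower and none higher. Both lower counts lay near the 14.9% of all genes tested that were lower. These sterol calls did not hold across fits. With the block none was lower and 1 was higher (HMGCS1, 1.34), without the filter 5 of 20 were higher and none lower, and DESeq2 called 1 higher and 2 lower. The lower count was 0 without muscle animal 4 or P0 animals 1, 4, 7, 8 or 9, and 1 without muscle animals 7 or 10 or P0 animal 2, and 1 gene was higher without muscle animal 4 or 10. SC5D, one of the lower genes, had a change of -1.15 (SE 0.43), which was not called with the block (-0.93) or without muscle animal 4 or 10 (-0.80 and -0.95).

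Basement membrane, junction and integrin genes were more often lower than higher. Of 11 basement membrane genes tested 7 were lower and 1, PXDN, was higher (median -1.07). PXDN, a peroxidase that crosslinks collagen IV and was named after its value was seen, had a change of 1.11 (SE 0.43), a call lost with the replicate block, without muscle animal 4, 8 or 10 and without P0 animal 1, 2, 7, 8 or 9. COL18A1, the collagen that yields endostatin, was at 219, 634, 350 and 440 CPM in muscle and at 29.4, 63.1 and 88.4 CPM at P0 (-2.72, SE 0.28), and NID2 fell by 1.64 (SE 0.27). The laminin chain LAMA4 was called at -1.07 (SE 0.21), which was -0.96 with the block and -0.79 without muscle animal 7. Interstitial matrix genes gave 1 lower and 1 higher call of 6, near the shares over all genes tested (14.9% and 14.7%). ELN (elastin) fell from 420, 809, 382 and 505 CPM to 23.5, 29.4 and 59.2 CPM (-3.86, SE 0.26), and DCN was higher, as described above. With the block 2 were higher and 2 lower, COL3A1 (1.96) being the further higher gene and FN1 (fibronectin) the further lower one. Without muscle animals 4, 7, 8 or 10 or P0 animals 1, 2 or 4, 2 were higher, and without the filter 7 of 26 were higher and 3 lower. Of 12 junction genes 5 were lower and 1 higher (median -0.86), among them JUP (plakoglobin), which fell by 2.75 (SE 0.34). Of 6 integrins 4 were lower and none higher (median -1.07). ITGB4, which anchors cells to laminin, fell by 4.33 (SE 0.44), and the integrin count was 2 with the block and without muscle animal 10 or P0 animals 1, 2, 4, 8 or 9, and 1 without P0 animal 7 (4 to 6 tested).

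Proteases and their inhibitors changed in both directions, 4 of 9 tested genes higher and 5 lower. The inhibitors TIMP3 and TIMP2 fell by 3.05 (SE 0.36) and 1.76 (SE 0.19). PLAT, the tissue plasminogen activator, was at 1901, 79.3, 1193 and 16.3 CPM in muscle and at 17.4, 53.9 and 96.4 CPM at P0, so that the groups overlapped (-3.78, SE 0.87, adjusted p = 0.00655), and its change was -2.90 without muscle animal 4. The lower count was 3 without P0 animals 1, 4, 7, 8 or 9, where 6 or 7 members were tested. In the list of endothelial-to-mesenchymal transition, 3 of 10 genes were higher and 2 lower (median -0.23), and without the filter 5 of 21 were higher and 1 lower. S100A4 was at 3272, 698, 3276 and 651 CPM in muscle and at 4889, 6278 and 6975 CPM at P0 (1.63, SE 0.45, adjusted p = 0.0162), a call that did not hold with the block (1.48). CCN1 was lower at -2.29 (SE 0.63, adjusted p = 0.0149), and -1.46 with no call without muscle animal 10. The lower count was 1 in that fit and without P0 animals 1, 2, 4, 7, 8 or 9.

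Most cell cycle genes were below the filter. Of 29 DNA replication genes 5 passed the filter and 3 were higher. MCM7, a subunit of the replicative helicase, was at 36.6, 15.9, 31.8 and 16.3 CPM in muscle and at 71.9, 86.1 and 116 CPM at P0 (1.80, SE 0.46, adjusted p = 0.00213), and DUT rose by 1.74 (SE 0.43). Of 32 mitosis genes 5 passed, none was higher and 1 was lower, with a list median of 1.34. This count depended on the fit. With the replicate block 3 of the 5 were higher (CENPF, TPX2 and TOP2A), with DESeq2 2 were, and without the filter 17 of 32 were higher and none lower, as were 10 of 29 DNA replication genes. Over all genes 1105 of 12602 were higher in the fit without the filter, where the median change was 0.39. TOP2A had a change of 1.34 (SE 0.97, adjusted p = 0.30) and of 2.20 with the block (adjusted p = 0.00741), and the 3 genes are named after their values were seen. The gene called lower was HMGB2, a chromatin protein (-1.10, SE 0.19), and its call was lost without muscle animal 8 (-0.88). Without muscle animal 4, 7, 8 or 10, 1 mitosis gene of 7 was called higher. A transcript of MKI67, the common marker of cycling cells and below the filter, was found in 0 of 81 muscle LECs, which allows a share of up to 3.7% of cells with a UMI but sets no limit on cells that express the gene at this depth. At P0 it was found in 19.6% of LECs, 27.0% of VECs and 72.1% of FAPs, at median depths of 9436, 12856 and 24188 UMIs, and after thinning in 7.74%, 7.49% and 25.7%. The FAP transcript DCN was found in 86.9% of the same P0 LECs, so the MKI67 share is not read as expression, and the part of transcripts from FAPs in it was not tested. CDKN1B (p27), an inhibitor of the G1 to S transition, was at 165, 111, 159 and 130 CPM in muscle and at 14.7, 29.7 and 49.7 CPM at P0 (-2.24, SE 0.37, adjusted p = 1.74e-05). The amino acid stress list had 3 higher and 2 lower genes of 7, and 0 and 1 of the 2 still tested without P0 animals 1, 2, 4, 7, 8 or 9. PHGDH, the first enzyme of serine synthesis, had 0 counts in muscle and was at least 5.72-fold higher (49.0, 58.8 and 118 CPM at P0), whereas DDIT4 fell by 1.88 (SE 0.24) and DDIT3 by 1.87 (SE 0.40).

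Of 7 antigen presentation genes tested, 2 were higher and none lower (median 0.04), beside 14.7% and 14.9% of all genes tested. Without the filter 3 of 16 were higher and 3 lower. Both encode immunoproteasome subunits, PSMB8 at 110, 31.7, 31.8 and 81.4 CPM in muscle and 143, 177 and 258 CPM at P0 (1.61, SE 0.34) and PSMB9 with 74.97, 101.6 and 137.2 CPM at P0 (2.59, SE 0.57, and 4.14 without muscle animal 4). B2M, the light chain of MHC class I and chosen after its values were seen, was at 3071, 1744, 1081 and 879 CPM in muscle and at 1201, 1689.8 and 1901 CPM at P0 (-0.01, SE 0.30). None of the 3 interferon-stimulated genes tested was called, among them ISG15 with a change of 1.03 (SE 1.14, and 1.62 without muscle animal 7) and IFIT5 with -0.70 (SE 0.36).

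To ask which changes differed between the endothelial types, the LEC change was compared with the VEC change in 1 model (VECs of 10 animals in muscle and 9 at P0). Of 5954 genes tested, 430 differed (7.22%), 280 with a more positive change in LECs (4.7%) and 150 with a more negative one (2.52%). The split was 221 and 198 with relative log expression (RLE) factors in the same test, and 234 and 248 with DESeq2, which changes the test as well as the scaling. The median difference over all genes was 0.22, and 0.10 with either alternative. A gene can enter this model through its level in the other cell type, so lists are counted over members that passed the filter in LECs alone. The shares over all genes, here and against FAPs, also hold genes that did not pass in LECs alone. They are therefore no like background for these list counts, and the share among genes that passed in LECs is not given. Lymphatic identity genes gave 3 calls of 19, all more negative in LECs. VECs held few transcripts of several of these genes. In muscle and at P0, PROX1 was found in 0.686% and 0.361% of VECs, LYVE1 in 0.858% and 0.842%, and CCL21 in 0.257% and 0%. RELN was found in no VEC. For such genes a missing call cannot tell whether the change was particular to LECs, because VECs had hardly any level to change. Not all were sparse, as SOX18 was at 644 and 1119 CPM of all UMIs in VECs. PTN differed by -3.45 (SE 0.87, and -2.73 with the block). STAB1 differed by -1.20 (SE 0.40, not called without muscle animals 7 or 8 or P0 animals 4 or 6). PDPN differed by -1.64 (SE 0.45, not called with the block or without muscle animal 10), although it was higher at P0 in LECs. PDPN was found in 1.03% of VECs in muscle and 24.7% at P0 (0.602% and 4.95% after thinning). It was also found in 83.1% of P0 FAPs (26.6% after thinning). The part of FAP transcripts in the PDPN level of VECs was not tested. B2M went from 13763 to 6298 CPM of all UMIs in VECs while LECs were at 1629 and 1720 CPM, a difference of 1.38 (SE 0.25, adjusted p = 0.00035), and 4 of 7 antigen presentation genes (B2M, PSMB8, PSMB9 and TAPBP) were called with a more positive LEC change and none with a more negative one. This count was 6 with the replicate block. PSMB9 (2.06) was at 3.54 without muscle animal 4 and not called without muscle animals 7 or 10 (1.61 and 1.54). GRO1 rose in LECs from 59.8 to 517 CPM and went from 588 to 86.3 CPM in VECs. The difference was 6.08 (SE 0.85, and 7.54 without muscle animal 4). The cysteine protease CTSC went from 18.7 to 527 CPM in LECs and from 208 to 336 CPM in VECs. Its difference was 4.20 (SE 0.58, and 5.07 without muscle animal 10). FABP5, chosen after its values were seen, was at 746 and 788 CPM in LECs and at 9008 and 128 CPM in VECs (6.41, SE 0.54).

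The other named differences from VECs were the following. SLC2A3, ADIRF and coagulation factor F8 changed less steeply in LECs than in VECs (differences 4.17, 3.78 and 3.72). F8 was at 211 and 67.8 CPM in LECs and at 221 and 6.59 CPM in VECs. The means of COL18A1 moved in opposite directions, from 391 to 62.0 CPM in LECs and from 45.6 to 344 CPM in VECs (difference -5.39, SE 0.32, adjusted p = 1.47e-15). IGFBP5 did the same, with 588 and 15.4 CPM in LECs and 42.8 and 151 CPM in VECs (-7.01, SE 1.38, and -6.39, -7.64 and -7.60 without muscle animals 4 and 7 and P0 animal 7). GJA4, a gap junction gene, went from 147 to 1.87 CPM in LECs and from 90.3 to 80.4 CPM in VECs (-5.63, SE 1.01, and -4.69 and -6.46 without muscle animal 7 and P0 animal 8). SHISA4 and SPSB1 also differed, by -3.58 and -3.68. CSF1 (7.57, adjusted p = 0.0322, 0 counts in muscle LECs) lost its call without any 1 of muscle animals 4, 7, 8 or 10. IRX5 (-4.13, adjusted p = 0.0343) lost its call with the block and without muscle animal 4 or 8 (-3.92 and -3.49). The IRX5 call was also lost without P0 animal 2, 7, 8 or 9. Sterol synthesis genes had a more negative LEC change in 6 of 12 and a more positive one in none. The more negative count was 2 without muscle animal 4.

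**Figure D5:**
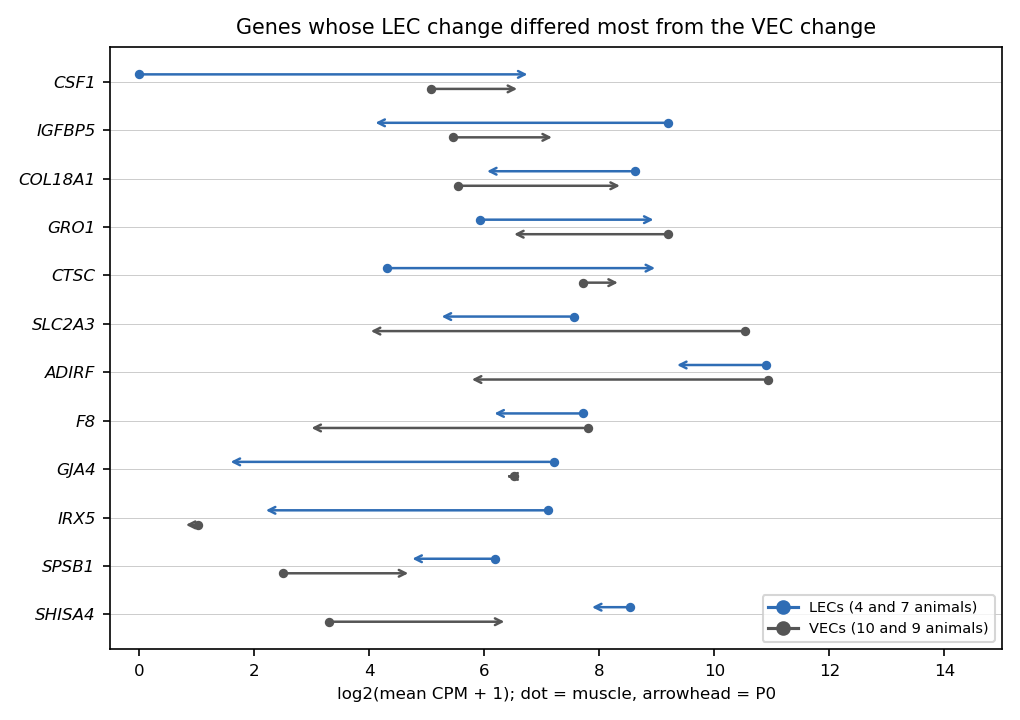
Mean levels in muscle (dot) and at P0 (arrowhead) in LECs (blue, 4 and 7 animals) and VECs (grey, 10 and 9 animals) as log2 of the mean CPM of all UMIs plus 1, for the 6 called genes in each direction whose LEC change differed most from the VEC change among those with a mean of at least 50 CPM in the higher LEC group and LEC animals of the 2 timepoints that did not overlap. The means of COL18A1 and IGFBP5 are lower at P0 in LECs and higher in VECs, and that of GRO1 is higher in LECs and lower in VECs.

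Against FAPs (10 and 9 animals), 886 of 7747 genes differed in their change (11.4%), 543 more positive in LECs (7.01%) and 343 more negative (4.43%). The median difference was 0.14. The more negative count fell to 214, 188, 212 and 191 without muscle animals 4, 7, 8 and 10, where the median rose to between 0.39 and 0.49, and to 230 to 243 without P0 animal 1, 4, 8 or 9. Both comparisons rest on the same LEC libraries. DCN went from 19369 to 2858 CPM of all UMIs in FAPs and from 28.6 to 401 CPM in LECs. Its difference was 6.58 (SE 0.53, and 7.27 and 7.18 without muscle animals 4 and 8). Of the members that passed the filter in LECs, 5 of 6 interstitial matrix genes and 7 of 11 basement membrane genes were called more positive. None was more negative. A more positive difference is not by itself a rise in LECs, where 7 of the 11 basement membrane genes were lower at P0 (median -1.07). Over all members tested in this model, 10 of 15 FAP markers were also more positive and none more negative (median 5.39). In P0 LECs DCN, COL1A1, COL1A2, COL3A1, LUM and PDGFRA were at 12.01% to 17.4% of their FAP level. The part of FAP transcripts in these differences was not tested. RBP4, RELB, SLC1A5 and CSF1 were among the largest differences, but each had 0 counts in muscle LECs, so that the size of the fitted difference is not defined by the data. In sterol synthesis 10 of 12 genes that passed in LECs were more negative and none more positive (median -2.73), and the count was 8 to 10 when 1 animal was left out. HMGCS1, an early enzyme of the pathway that was chosen after its values were seen, went from 41.2 to 890.0 CPM in FAPs and from 176 to 404 CPM in LECs (difference -3.12, SE 0.64, adjusted p = 0.00091). Of the 5 DNA replication genes that passed in LECs, 3 had a more negative change in LECs and none a more positive one. The more negative count was 2 without muscle animal 4, 7 or 8. Among the 3 was the helicase subunit MCM5 (-3.08, SE 0.60), also picked after its values were seen. The MCM5 call was lost without muscle animal 7 (-2.17, adjusted p = 0.0516). MARCKSL1, an actin regulator, was at 415 and 207 CPM in LECs and at 8.60 and 222 CPM in FAPs (-5.45, SE 0.27, adjusted p = 8.21e-18). The receptor NOTCH1 went from 80.3 to 14.6 CPM in LECs and was at 1.39 and 4.85 CPM in FAPs (-4.64, SE 0.75). NOTCH1 did not pass the filter in LECs alone and was tested only in the joint model.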

How the data were processed

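Cells of 10 animals were profiled with 10x Genomics 3′ chemistry at 5 timepoints, of which muscle and P0 were used. Per the submitters' processing notes and the study's methods, the authors aligned reads with Cell Ranger 6.0.1 to the cattle genome ARS-UCD1.2 with Ensembl release 101, and deposited raw UMI counts per gene and barcode in 1 matrix per timepoint. The deposited cell table holds the donor (demuxlet), the cell type label, and the percent of mitochondrial UMIs as computed by the authors. The authors kept cells within 3 median absolute deviations for depth and quality. Demuxlet finds doublets between animals, and no further doublet caller was run, so that doublets of cells from 1 animal remain. A normalized expression table, 10 further columns of the cell table and passages 2, 5 and 8 were not used.

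Counts of singlets were summed per animal, cell type and timepoint (at least 10 cells). Genes were filtered with filterByExpr and tested with edgeR 4.0.16 in R 4.3.3 (TMM, robust quasi-likelihood F test), and calls needed an adjusted p below 0.05 and a log2 change above 1 in either direction. The standard error is the log2 change divided by the square root of F. Differences between cell types are interaction terms of a model over both types. That model had no donor block, so sums of the same animal from both types were treated as independent, except in the fit with the block. Genes with 0 counts in a group are given as bounds against 3 counts summed over that group, and genes with 1 to 3 counts as ratios with exact 95% intervals. Intervals and floors cover counting error only. Levels across cell types are CPM of all UMIs without TMM. Measures per animal were compared by exact permutation tests (scipy 1.17.1). DESeq2 1.42.0 served as an alternative. Only the 3 main fits were run on simulated counts, with the same dispersion for all genes and no donor effect. The outcome is not given here, and the alternatives were not run on simulated counts.

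Same-numbered samples are the same animals, so pairing holds by design. The deviations of a shared animal from its group means correlated by 0.0164 to 0.045 over the 3 shared animals, and by -0.0024 to 0.1096 over 8 animals with at least 5 cells. Alternatives were DESeq2, RLE factors, no filter, at least 5 cells, the animal as a block, thinning to the smallest library and leaving out each animal. The fit with at least 5 cells and the block, and that without LECs with fewer than 2 of 7 lymphatic markers, were chosen after seeing the data.

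Cells, gene lists (35) and tests were chosen with earlier results of these data known. Genes named are the 12 called genes per direction with the largest change (6 for each difference between types) that had a mean of at least 50 CPM in the higher LEC group, 1 Ensembl gene per symbol and animals that did not overlap, with fibre genes given as a list. Also named are tested lymphatic and pan-endothelial genes and, for other lists, the 2 to 4 most abundant called members, or tested members where none was called. Genes set against FAPs, cell type markers and genes said to be chosen after their values were seen lie outside that rule. Symbols were taken from the deposited feature table (16828 of 21880 genes). A few genes are not reported here by name.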

Additional observations from a re-analysis of the deposited data

Results flagged for a closer look

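Single animals stood apart from the rest of their group in 15 of 234 groups of 4 to 10 animals tested (gap to the nearest animal over the whole range above Dixon's 95% value), where chance gives about 1 in 20. At P0 animal 6 was highest for SOD2 (2433 CPM), CCL21 (658 CPM), CCL5 (3573 CPM), ISG15 (341 CPM) and TIMP3 (141 CPM). This animal had the fewest LECs (10) and UMIs (80694) of the P0 group, so a few cells can set its values. P0 animal 7 was highest for CXCL2 (1906 CPM) and PTN (167 CPM), P0 animal 1 for FLT4 (265 CPM) and P0 animal 2 for PARD6G (99.4 CPM) and NID2 (116 CPM). In muscle, animal 4 was lowest for SOX18 (439 CPM) and highest for CLDN11 (750 CPM), animal 10 was lowest for TGFBR2 (423 CPM) and highest for CDKN1C (244 CPM), and animal 7 was highest for CCL5 (174 CPM).

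The LEC change differed from the VEC change in 430 genes (edgeR interaction term). The named differences, LEC change minus VEC change on the log2 scale, were 7.57 for CSF1, 6.08 for GRO1, 4.20 for CTSC, 4.17 for SLC2A3, 3.78 for ADIRF and 3.72 for F8, and -7.01 for IGFBP5, -5.63 for GJA4, -5.39 for COL18A1, -4.13 for IRX5, -3.68 for SPSB1 and -3.58 for SHISA4. The CSF1 value is fitted against 0 counts in muscle LECs.

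The LEC change differed from the FAP change in 886 genes. The named differences were 11.1 for RBP4, 10.9 for SLC1A5, 10.7 for RELB and 9.23 for CSF1, all 4 fitted against 0 counts in muscle LECs and dependent on the prior count. They were 6.74 for COL1A1 (1 count in muscle LECs, and 14.06 without muscle animal 10, which held it) and 6.58 for DCN. Both genes are FAP markers, and the part of FAP transcripts in these values was not tested. The more negative named differences were -7.42 for DSP, -5.45 for MARCKSL1, -5.20 for S100B, -5.19 for TINAGL1, -5.11 for PTPRU and -4.64 for NOTCH1, which did not pass the filter in LECs alone. The DSP value was -6.27 without muscle animal 8, -6.80 without P0 animal 1 and -11.81 without P0 animal 7, and that of PTPRU was -4.49 without muscle animal 7 and -6.30 without P0 animal 1. CSF1 lost its call against FAPs with the replicate block (adjusted p = 0.218), without any 1 of muscle animals 4, 7, 8 and 10 (adjusted p between 0.071 and 0.0794) and without P0 animals 2 and 6 (0.0505 and 0.0577).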

How the results depend on the processing

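The direction of every called named gene held under each alternative that tested it, and not every alternative tested each gene. Of 144 named genes in the LEC change 38 changed their call under at least 1 alternative, with 26 calls lost without a filter, 14 with the replicate block, 10 with at least 5 cells, 8 with both, 2 after thinning, 9 without LECs of few lymphatic markers, 3 with DESeq2 and 2 with RLE factors. The 898 genes called in LECs became 1863 of 12602 without a filter, 295 of 1046 with at least 5 cells, 302 with at least 5 cells and the block, and 348 of 1048 after thinning to 56121 UMIs, where fewer or more genes were tested. Without a filter the median change over all genes also moved, from 0.06 to 0.39. They were 805 with the replicate block, 880 with DESeq2, and 650 to 957 when 1 animal was left out (2112 to 3420 genes tested). The VEC difference gave 188 genes of 1650 after thinning and 346 to 409 without 1 animal (430 in the report). The FAP difference gave 289 of 1670 and 826 to 1002 (886). The share of more positive differences ranged from 48.5% to 65.6% against VECs, and against FAPs from 49.4% to 66.8% under other settings and from 61.0% to 80.9% without 1 animal; the cause was not tested. The planned fit with at least 15 cells was not run because no muscle animal had over 13 LECs. Depth limits genes of low level, since 0 counts in a muscle group of 254421 UMIs allow a level of up to 11.8 CPM.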
